A study of Danio rerio with 16 samples.

Results

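The comparison described here is that of wfikkn1 mutant zebrafish embryos with wild-type embryos that had both received only the vehicle, across all expressed genes. Its members are the 7 libraries of the vehicle groups, 4 mutant and 3 wild type, of 14 libraries in the count table. Per the labels, each library came from RNA of a pool of 9 whole embryos raised in a dish of its own and collected at 48 hours post fertilization (hpf). The wild-type embryos were of the Tropical 5D line and the others of a wfikkn1 mutant line. Both groups spent 1 h in 0.1% DMSO from 4 hpf. The groups set beside them spent that hour in 1 ng/mL TCDD (2,3,7,8-tetrachlorodibenzo-p-dioxin), which activates the aryl hydrocarbon receptor, with 3 wild-type and 4 mutant libraries. The labels name 16 samples, and replicate 2 of each wild-type group was not analysed here. The kind of mutation, its zygosity and how the mutant line descends from the wild type were not given in the sources used here, so an effect of the mutation and a difference in the background of the 2 lines cannot be told apart.

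WFIKKN1 is a secreted protein with several protease-inhibitor-like domains, among them a follistatin and a Kunitz domain. In mammals it binds myostatin and GDF11, ligands of the TGF-beta family that restrain muscle growth and help to pattern the body axis. Binding keeps these ligands from their activin-type receptors, so that WFIKKN1 is counted among the extracellular antagonists of myostatin, with follistatin.

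Total counts per vehicle library ran from 20597475 to 26884477. Of 32520 genes in the table, 20098 had enough counts to be tested. A gene is called when the p of edgeR's quasi-likelihood test, adjusted over these 20098 genes, lies under 0.05. Levels are in CPM, counts relative to library size after TMM scaling, differences are log2 fold changes of mutant over wild type ± SE, and positive values are higher in the mutants. On the 500 most variable genes of the 7 libraries, principal component 1 explained 73.5% of the variance and set all wild-type libraries (-38.22 to -29.96) apart from all mutant libraries (19.94 to 29.32). All tissue lists had tested members, from 8 hatching gland to 39 liver and yolk genes. Libraries of a group also differed among themselves along a shared axis, computed over 15143 genes after the group means were taken out, which held 28.8% of the variance within groups. On it wild-type replicates 1, 3 and 4 scored 0.9873, -10.69 and 40.3, and mutant replicates 1 to 4 scored -25.42, -13.56, 8.48 and -30.38. Wild-type replicate 4 thus stood apart from every other vehicle library, and mutant replicate 3 from the rest of its group in the same direction. Mutant replicates 1, 2 and 4 scored below every wild-type library. Mutant replicate 3 scored above wild-type replicates 1 and 3, so the groups overlapped. Counts of at least 4 calls in a gene list are therefore also given without single libraries where that moved them by over 1.5 times. Calls of genes are marked where they ended without a library or without both wild-type replicate 4 and mutant replicate 3. Whether the mutation, the line or the state of single pools moved this axis was not tested.

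The targeted gene was low in the vehicle and lower in the mutants. Wild-type libraries held 10, 12 and 19 wfikkn1 counts (ENSDARG00000101364, chromosome 1), and mutant libraries held 0, 0, 4 and 3. Every mutant library lay below every wild-type library. The means were 0.61 ± 0.214 CPM in wild type (SD, n = 3) and 0.076 ± 0.0908 CPM in mutants (SD, n = 4), a log2 change of -2.95 ± 0.68 (edgeR adjusted p = 0.00737). With limma-voom the change was -3.36 (limma-voom adjusted p = 0.0663). With the library score on the shared axis as a term, an alternative chosen after seeing the data, it was -2.43 (edgeR adjusted p = 0.0631). The call in the vehicle thus rests on a few reads. It also rests on a filter over all 14 libraries, those with TCDD included. The fit of the DMSO libraries alone did not hold the gene. With TCDD the gene was better counted, with 214, 454 and 520 counts in wild type and 14, 15, 21 and 22 in mutants (-4.50 ± 0.36, edgeR adjusted p = 4.16e-07). The difference between the exposures was not called (-1.55, edgeR adjusted p = 0.369).

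Across all genes the 2 lines differed widely. In the vehicle 3378 of 20098 tested genes were called (16.8%), of which 1650 were higher (8.21%) and 1728 lower (8.6%) in the mutants, and the unadjusted p was under 0.05 for 6284. At least 2-fold higher were 610 genes (3.04%) and at least 2-fold lower 584 (2.91%). At 4-fold, 158 were higher and 235 lower. The median change over all tested genes was 0.00, and over the called genes 0.79 for rises and -0.71 for falls. Most called genes separated the groups: CPM did not overlap in 1286 of the rises and 1560 of the falls, against 23.6% of all tested genes, called ones included. Calls were made on these same libraries, so a larger share among called genes was favoured in advance. The authors' deposited table of this comparison lists 1546 genes higher and 1674 lower, and 3166 of these were called here the same way. The number of rises depended on single libraries. Without wild-type replicate 4 there were 928 rises (4.55%) and 1136 falls (5.57%), without mutant replicate 1 there were 1039 rises, and without mutant replicate 4 there were 1053. At least 2-fold rises numbered 372 without wild-type replicate 4, and at least 2-fold falls ran from 494 to 592 whichever library was left out.

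**Figure D1:**
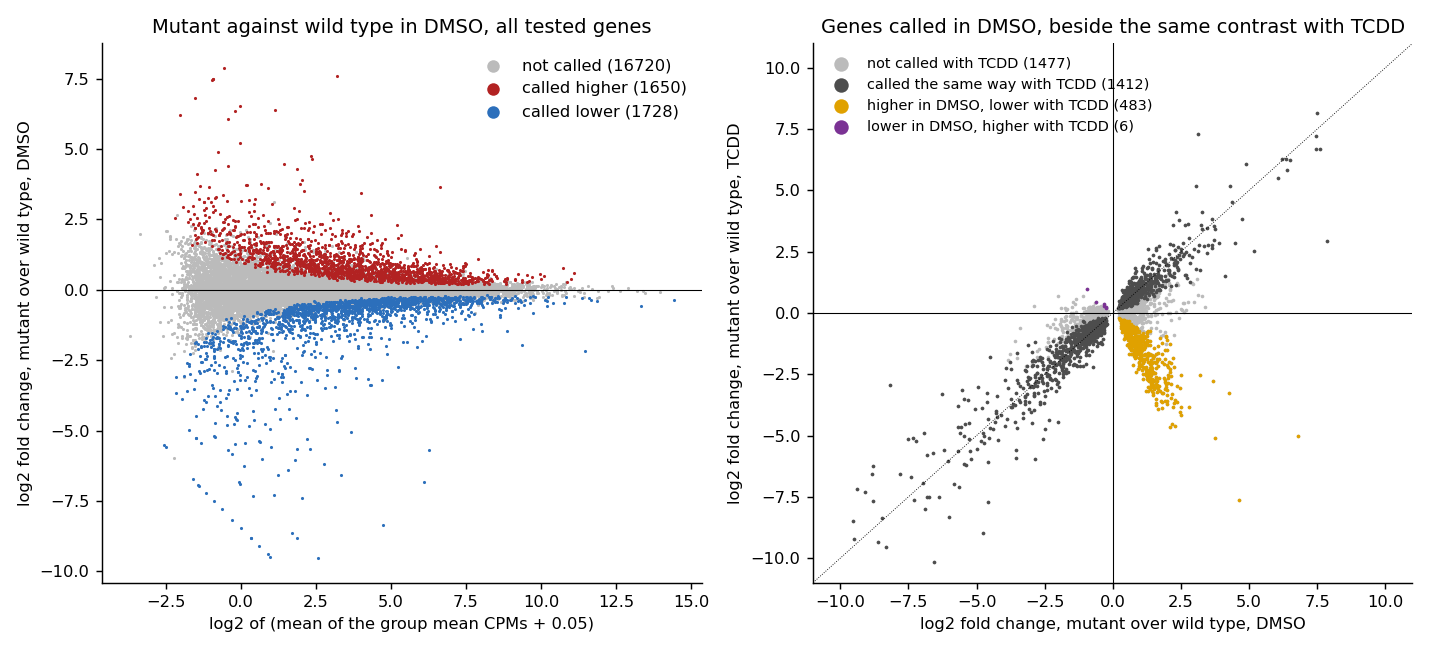
Left, log2 fold change of mutant over wild type in DMSO against the log2 mean level for 20098 tested genes, with 1650 called higher in red and 1728 called lower in blue. Right, the same change in DMSO on the x axis and with TCDD on the y axis for the called genes. The lower left arm holds large falls along the dotted line of equal change, and the 483 gold points were higher in DMSO and lower with TCDD.

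The largest falls are given here among called genes with a gene name, a mean of at least 1 log2 CPM and no overlap between the groups. An ID of actc1a, a sarcomeric actin of heart and skeletal muscle (ENSDARG00000076126, chromosome 20), stood at 94.7, 145 and 167 CPM in wild type and at 0.87, 1.1, 1.35 and 1.4 CPM in mutants (-6.83 ± 0.24, edgeR adjusted p = 1.22e-11). The mitochondrial ADP/ATP carrier gene slc25a4 stood at 13.4, 14.3 and 23.1 CPM against 0.58, 0.733, 1.13 and 1.03 CPM (-4.28 ± 0.28). An ID of rrm2, described below, fell between these in size. Falls in the longest and second longest runs of neighbours, mpdu1a, slc25a15b, acot9.1 and atp6v0a2b among them, are given below. Further falls by the same rule were those of uba2 of the SUMO-activating enzyme (-3.40 ± 0.51), ostf1, which is named for a role in osteoclasts in mammals (-3.21 ± 0.26), and the zinc finger gene zbtb2b (-3.01 ± 0.51). Others were atp6v1b2 of the vacuolar proton pump (-2.86 ± 0.45), the malic enzyme gene me2 (-2.78 ± 0.20), rbfox1l, a splicing factor of muscle (-2.76 ± 0.43), and the sarcosine dehydrogenase gene sardh (-2.41 ± 0.53). Of these, ostf1, zbtb2b and me2 lie in shorter runs. Mutant libraries were uneven for some of the falls: rbfox1l stood at 14, 12.1, 11.9 and 1.07 CPM and sardh at 1.89, 3.15, 0.18 and 7.25 CPM.

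By the same rule, the largest rises were those of phf5a and casp6. The splicing factor gene phf5a stood at 0.3, 0.325 and 0.445 CPM in wild type and at 8.36, 9.75, 7.71 and 12.7 CPM in mutants (4.74 ± 0.39, edgeR adjusted p = 6.15e-07). An effector caspase gene, casp6, stood at 0.171, 0.417 and 0.445 CPM against 5.66, 6.6, 7.94 and 7.09 CPM (4.30 ± 0.34, edgeR adjusted p = 4.6e-07). Each was thus above 5 CPM in every mutant pool and under 0.5 CPM in every wild-type pool. An ID of rrm2 is described below. The other rises were arhgef28b (3.91 ± 0.31), dicp1.16 of a family of immune receptors of fishes (3.51 ± 0.30), tnrc6c2 of the microRNA silencing machinery (3.44 ± 0.36), the cadherin gene cdh29 (2.91 ± 0.33), CCDC134 (2.67 ± 0.22), rangap1b, which activates the GTPase of nuclear transport (2.32 ± 0.26), wdr21 (2.26 ± 0.25), the immediate early factor egr1 (2.12 ± 0.29), CEP170B (1 of many) (2.10 ± 0.43), l3mbtl2 of a chromatin repressor family (2.03 ± 0.23), tbc1d9 (2.02 ± 0.40) and the serotonin receptor gene htr6 (2.01 ± 0.26). Reads of dicp1.16 and of CEP170B (1 of many) can be shared with near-identical relatives, so their values are uncertain.

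Some names were carried by more than 1 gene ID, and 8 such names had an ID called higher and another called lower. For rrm2, the small subunit of ribonucleotide reductase that makes deoxynucleotides for DNA synthesis, ENSDARG00000078069 stood at 131, 155 and 167 CPM in wild type and at 3.77, 2.78, 2.75 and 2.47 CPM in mutants (-5.68 ± 0.15, edgeR adjusted p = 1.71e-13). ENSDARG00000020711 stood at 21, 9.74 and 13 CPM in wild type and at 192, 175, 174 and 198 CPM in mutants (3.66 ± 0.37, edgeR adjusted p = 6.41e-06). The sum over both IDs was 165 ± 14.1 CPM in wild type (SD, n = 3) and 188 ± 12.3 CPM in mutants (SD, n = 4), a log2 ratio of 0.18. The lines thus differed in which rrm2 ID took the reads far more than in their sum. The 2 IDs of actc1a summed to 216 ± 53.3 CPM and 139 ± 20.8 CPM, a log2 ratio of -0.64, against -6.83 for the ID that fell. For znf1104 the sums were 0.987 and 1.09 CPM, and 4 of the other names were clone names. Reads of near-identical copies can be split between IDs by the counting, so single-ID values of these names are uncertain, and how the copies differ between the lines was not tested.

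**Figure D2:**
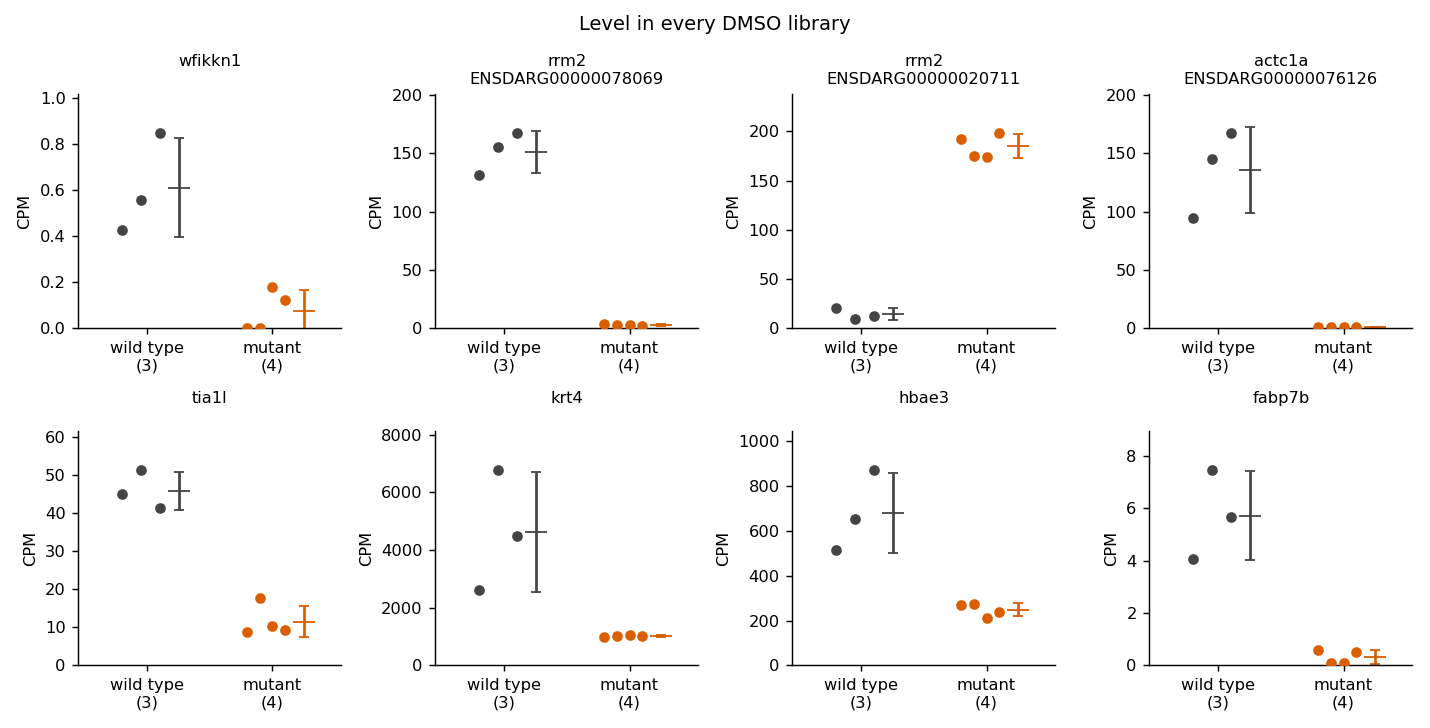
CPM of 7 genes, rrm2 with 2 IDs, in each vehicle library, wild type (3 libraries, grey) and mutant (4, orange), with the mean ± SD beside the points. In every panel the groups do not overlap, which was favoured in advance because the genes were called on these libraries. The 2 rrm2 panels mirror each other, and krt4 spreads from 2603 to 6767 CPM in wild type while the mutants lie between 992 and 1040 CPM.

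A few genes had reads in all libraries of a line and next to none in the other. With at most 3 counts in every library of a line and at least 50 in every library of the other, 9 genes were on in wild type only and 1 in mutants only, the clone-named BX548075.3. The basic helix-loop-helix factor gene olig4 (chromosome 13) had 55, 112 and 74 counts in wild type and 0 in all 4 mutant libraries, so that it was at least 24.9-fold higher in wild type against a floor of 3 counts per library. The growth factor gene areg, which encodes the EGF receptor ligand amphiregulin (chromosome 5), had 84, 105 and 93 counts against 1, 0, 1 and 0. The class I MHC gene mhc1uba (chromosome 19) had 58, 195 and 168 counts against 0, 0, 1 and 0. These 3 genes kept that split with TCDD, where mutant libraries held at most 1 count of any of them and wild-type libraries at least 41. Class I MHC haplotypes of zebrafish are known to differ in which genes they hold. With thresholds of 20 and 100 counts, 25 and 2 genes were on in wild type only and 7 and 0 in mutants only.

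Many genes that differed lay next to each other on the chromosomes. By the gene order of assembly GRCz12tu, which served only for names, chromosomes and order, 804 of 15454 placed tested genes were called with at least 2-fold change (5.2%). The next gene was also called at that size after 121 of them (15%), in the same direction for 99 and in the other for 22. Runs of 3 or more neighbours that moved the same way, looked for after the data had been seen, numbered 17 with 68 genes, 12 of them lower and 5 higher in the mutants. No test was made of their number or place.

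The longest run held 14 neighbours on chromosome 5, all lower in the mutants, by -3.75 to -1.58 with a median of -2.64. Among its members were gabarapa of autophagosome formation, gps2 of a corepressor complex, the mitochondrial ribosome gene mrps31, the ornithine carrier slc25a15b, tm4sf21a, mpdu1a of protein glycosylation, the early neural factor sox19a, the RNA-binding tia1l, dgcr8 of microRNA processing, the tRNA methyltransferase trmt2a and the proton pump subunit atp6v0a2b. For example, tia1l stood at 44.9, 51.2 and 41.2 CPM in wild type against 8.85, 17.6, 10.3 and 9.23 CPM in the mutants (-1.99 ± 0.26, edgeR adjusted p = 7.29e-05). In 13 of the 14 the groups did not overlap, and tm4sf21a, at 0.599, 0.0927 and 0.535 CPM against 0.0967, 0.0733, 0.0902 and 0, did. Over all tested genes 23.6% did not overlap. Members of runs were called on these same libraries, so a larger share was favoured in advance. The call of tm4sf21a ended without wild-type replicate 1 or 4 or mutant replicate 2 or 4 (edgeR adjusted p = 0.0506 to 0.0992). All 14 were called lower with TCDD as well, by -3.51 to -1.74. The neighbour before the run, pdha1a, was also called lower but by less (-0.83 ± 0.25, edgeR adjusted p = 0.0304). The neighbour after it, rasl10a, was called higher (1.37 ± 0.40, edgeR adjusted p = 0.0266), and ap1b1, the next, was not called (0.04).

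The second longest run lay on chromosome 24 with 6 falls from -3.50 to -1.39. It held the deubiquitinase usp12a, the ubiquitin ligase lnx2a, tagln3b, the acyl-CoA thioesterases acot9.2 and acot9.1, and apoob of the mitochondrial cristae complex. Runs of 4 genes were found on chromosome 12 (fam20cb, atpaf2, noxo1b and rnf151 lower; l3mbtl2, chadlb, rangap1b and kctd17 higher) and on chromosome 20 (armt1, zbtb2b, akap12b and mthfd1l lower). A run on chromosome 1 of prom1b, tapt1b and ldb2b fell by -6.19 to -4.12, and a run on chromosome 3 of CCDC134 and the class I MHC genes mhc1zka and mhc1zfa rose by 1.97 to 3.47. Several of the largest single changes above, among them mpdu1a, slc25a15b, acot9.1, zbtb2b, atp6v0a2b, ostf1, me2, areg, rangap1b and l3mbtl2, are members of such runs. Runs held 52 to 68 genes whichever scaling, library set or axis term was used, and 13 or 14 members of the longest run were called at least 2-fold lower. The call of noxo1b ended without any library but wild-type replicate 3 or mutant replicate 2 (edgeR adjusted p = 0.0519 to 0.141), and that of atpaf2 without both wild-type replicate 4 and mutant replicate 3 (edgeR adjusted p = 0.0539).

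**Figure D3:**
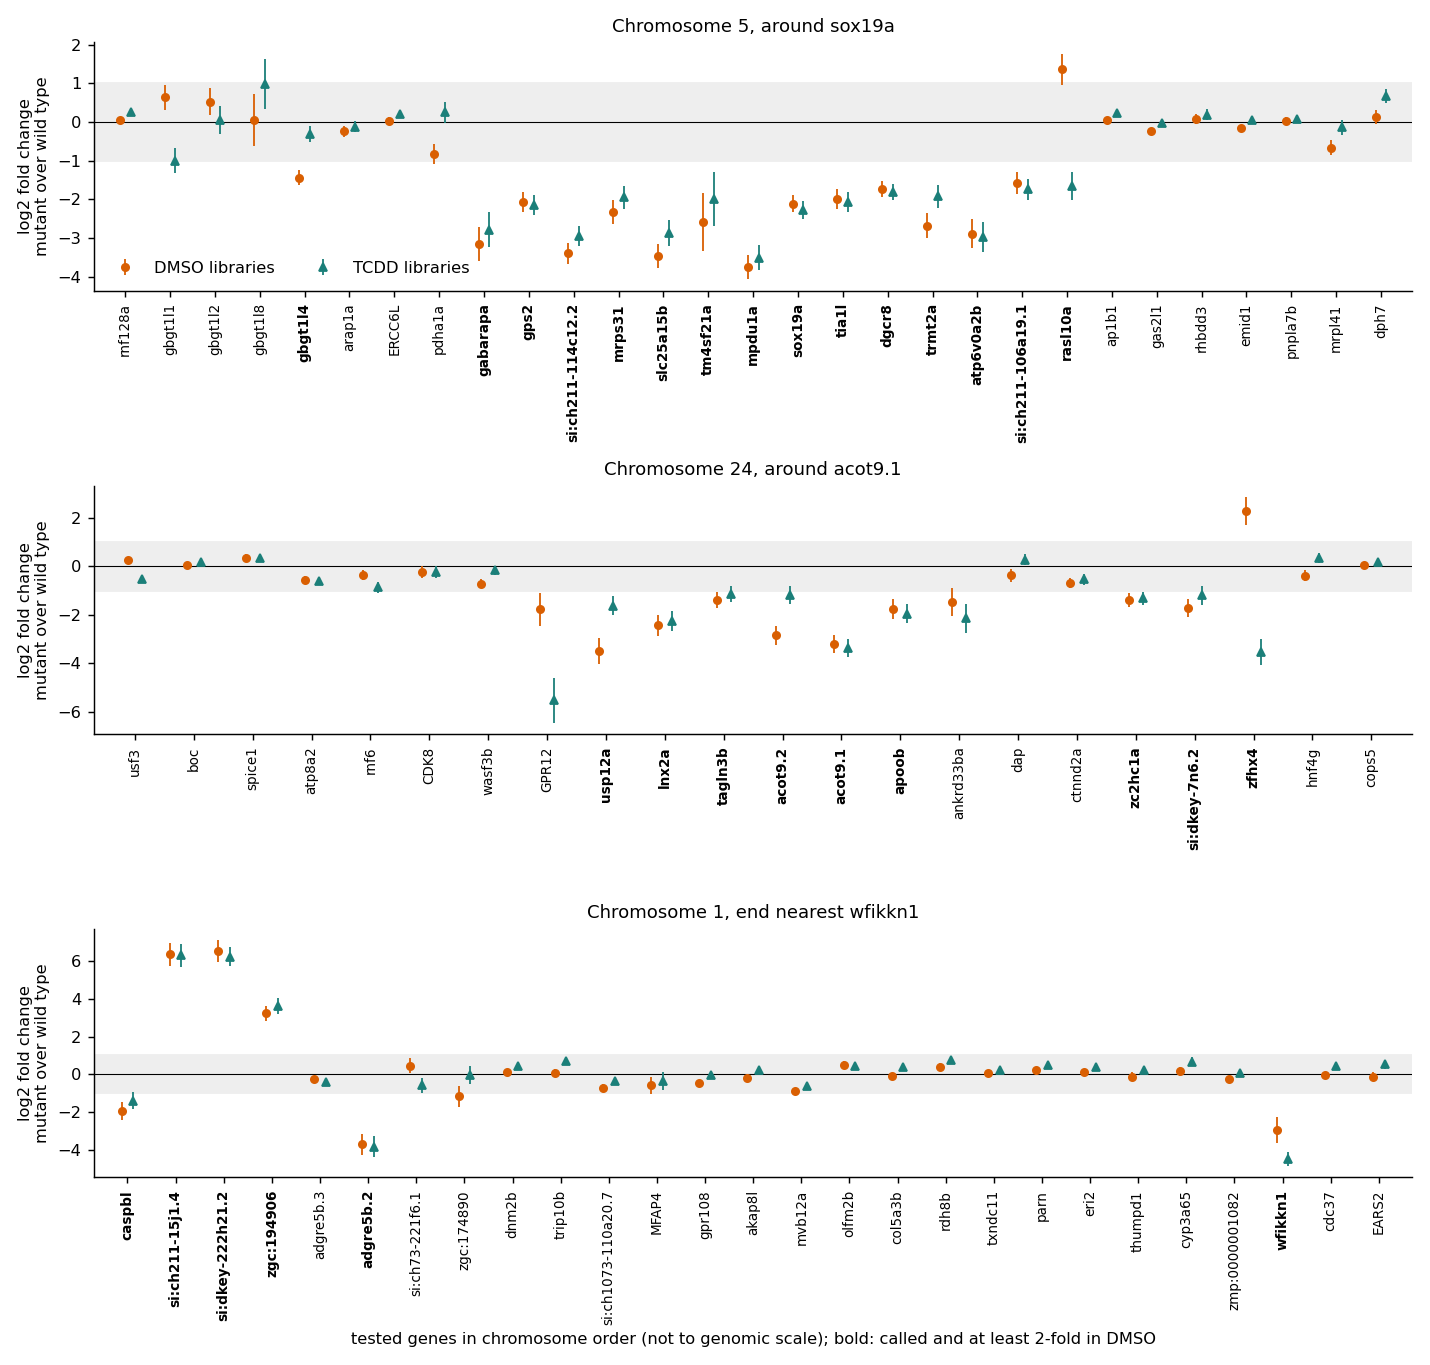
Log2 fold change of mutant over wild type ± SE for tested genes in chromosome order, in DMSO (orange circles) and with TCDD (green triangles); the grey band marks less than 2-fold, and genes in bold were called and at least 2-fold in DMSO. The chromosome 5 panel shows 13 of the 14 neighbours, between -3.75 and -1.58 in DMSO, and the chromosome 1 panel shows the large changes at the far end of the window from wfikkn1.

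wfikkn1 lies near the end of chromosome 1 in this order, with only 2 tested genes after it. Among the 25 tested genes before it and those 2, 10 were called (37%), 4 higher and 6 lower, and 5 of them at least 2-fold (18.5%), against 16.8% and 5.94% of all genes. Within 10 genes before it and those 2, 2 of 12 were called (16.7%) and none at 2-fold, and with 50 genes before it 20 of 52 were called (38.5%). The large changes thus lay away from the gene itself. They were si:dkey-222h21.2 (6.52 ± 0.57), which stood at 0.0428, 0 and 0 CPM in wild type and at 1.64, 2.05, 2.16 and 1.52 CPM in mutants, si:ch211-15j1.4 (6.35 ± 0.62), zgc:194906 (3.24 ± 0.40), the adhesion receptor gene adgre5b.2 (-3.71 ± 0.57) and caspbl of the caspase family (-1.93 ± 0.47), whose call ended without wild-type replicate 4 (edgeR adjusted p = 0.0557). Fitted folds of si:dkey-222h21.2 and si:ch211-15j1.4, each with wild-type counts of 1, 0 and 0, rest on wild-type levels under the floor and are not bounds. The fold of adgre5b.2 rests on mutant counts of 1, 3, 1 and 4, near the floor of 3 counts. Smaller changes closer by included those of the ESCRT subunit gene mvb12a (-0.91 ± 0.15), gpr108 (-0.46 ± 0.08), si:ch1073-110a20.7 (-0.71 ± 0.19) and the olfactomedin gene olfm2b (0.52 ± 0.16). The call of si:ch1073-110a20.7 ended without wild-type replicate 3 or mutant replicate 2, and that of olfm2b without wild-type replicate 1 or mutant replicate 1 or 4, or without both wild-type replicate 4 and mutant replicate 3 (edgeR adjusted p = 0.0511 to 0.101). By chromosome, the share of tested genes called ran from 13% on chromosome 11 to 22.7% on chromosome 12, with 21.8% on chromosome 1.

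Many genes of red blood cells were lower in the mutants and none was called higher. Of 26 tested erythroid genes, 13 fell (50% against 8.6% of all genes), none rose and 13 were not called. Their median was -0.50 against 0.00 over all genes. The embryonic globin gene hbae3 stood at 515, 652 and 869 CPM in wild type and at 267, 274, 210 and 239 CPM in mutants (-1.46 ± 0.15, edgeR adjusted p = 8.58e-06). Heme and red cell enzymes fell with it: uros of heme synthesis (-0.74 ± 0.09), the red cell carbonic anhydrase cahz (-0.67 ± 0.08) and the nucleotidase gene nt5c2l1 (-1.20 ± 0.16). No mutant library reached a wild-type library for any of these 4, which was favoured in advance because they were picked by p in these libraries. Further called members, named after their values were seen, were the globin genes hbbe1.2 (-1.74), hbbe1.1 (-1.04) and hbbe1.3 (-0.77), the anion exchanger slc4a1a (-0.61) and the membrane skeleton gene epb41b (-1.06). The transcription factor klf1, which drives the red cell programme, was not called at 9.69 and 7.26 CPM (-0.42, edgeR adjusted p = 0.0992), and klf17 stood at 6.74 and 6.83 CPM. Globin genes are near-identical within their cluster, so that reads may be split between them, but the summed level of the list separated the groups as well, with 2214 to 2710 CPM in wild type and 1189 to 1506 CPM in mutants. In pools of whole embryos, fewer cells of a type and less RNA per cell cannot be told apart. The list's members had a median at percentile 26.1 of the weights of the shared axis. Leaving out each library in turn left 10 to 13 falls, and leaving out both wild-type replicate 4 and mutant replicate 3 left 8.

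Contractile genes of muscle, the tissue in which myostatin acts, fell in part. Of 32 fast muscle genes 14 fell (43.8%) and 1 rose (median -0.30). Of 14 slow muscle genes 6 fell (42.9%) and none rose (median -0.42), and of 23 heart muscle genes 7 fell (30.4%) and 1 rose (median -0.27). Over all genes 8.6% fell and 8.21% rose. The heart falls include the ID of actc1a described above, a name with IDs called in opposite directions, so its single-ID value is uncertain. Nebulin, which sets the length of thin filaments, had neb at 206, 172 and 200 CPM in wild type and at 96, 77.6, 65.8 and 115 CPM in mutants (-1.12 ± 0.17, edgeR adjusted p = 0.000327). The muscle creatine kinase gene ckma stood at 124 and 63 CPM (-0.98 ± 0.22), the fast troponin I gene tnni2a.4 at 738 and 473 CPM (-0.64 ± 0.14), the slow myosin heavy chain gene smyhc1 at 37.4 and 20.9 CPM (-0.84 ± 0.18) and the atrial light chain gene myl4 at 24.3 and 12.9 CPM (-0.92 ± 0.18). The fast myosin heavy chain gene myhz1.1, at 10905 and 10630 CPM, had a difference of -0.04 (edgeR adjusted p = 0.844). The only rise among the fast muscle genes was mylpfa, a light chain gene whose ID held at most 0.989 CPM in any vehicle library.

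The count of fast muscle falls turned most on wild-type replicate 4, in which the median members of the fast and slow muscle lists were highest. Single genes differed, with neb highest in wild-type replicate 1 and smyhc1 in wild-type replicate 3. The median heart muscle gene stood level in wild-type replicates 3 and 4 (0.13 and 0.14 relative to the wild-type mean). Falls without wild-type replicate 4 numbered 4 fast, 3 slow and 3 heart muscle genes. Fast muscle falls also dropped to 9, 9 and 8 without mutant replicates 1, 3 and 4, slow muscle falls to 3 without wild-type replicate 3 (4 without any mutant library), and heart falls to 4, 3 and 4 without wild-type replicate 3, mutant replicate 2 and mutant replicate 4. The median member of the fast muscle list still lay lower in all 4 mutant libraries (-0.33 to -0.23 relative to the wild-type mean) than in wild-type replicates 1 and 3 (-0.15 and -0.08), and wild-type replicate 4 stood at 0.19. Upstream of these genes, mef2ca, a regulator of sarcomere genes, stood at 490, 578 and 516 CPM in wild type and at 287, 279, 225 and 279 CPM in mutants (-0.98 ± 0.09, edgeR adjusted p = 2.41e-06). It fell, as did six1b (-0.76 ± 0.16), which acts early in fast muscle. The factors of muscle progenitors pax3a (0.75 ± 0.12) and pax3b (1.29 ± 0.27) rose. Of 20 myogenic regulators 2 rose and 2 fell (10% each, median 0.03), near the 8.21% and 8.6% of all genes. The other 16 were not called, and leaving out a library moved the rises or the falls of this list by at most 1 gene.

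Genes of the pathway to which WFIKKN1 belongs showed no common direction. Of 24 tested genes of myostatin, activin, their receptors and antagonists, 4 rose (16.7%) and 2 fell (8.33%) with wfikkn1 itself counted (median 0.12). Over all genes 8.21% rose and 8.6% fell, so the share of falls was near that of all genes. The signal transducer smad3a stood at 8.05, 9.69 and 4.19 CPM in wild type and at 23.6, 14.1, 19.9 and 11 CPM in mutants (1.23 ± 0.28, edgeR adjusted p = 0.00602), with no overlap. It was not called without both wild-type replicate 4 and mutant replicate 3 (0.87, edgeR adjusted p = 0.0506). The ligand genes tgfb2 (0.46 ± 0.14, edgeR adjusted p = 0.0308) and tgfb3 (-0.42 ± 0.12, edgeR adjusted p = 0.0227) were called, but tgfb2 not without wild-type replicate 4 or mutant replicate 1, 2 or 4, and tgfb3 not without wild-type replicate 1 or 4 or mutant replicate 4 (edgeR adjusted p = 0.0509 to 0.143). Rises in this list numbered 1 without wild-type replicate 4, mutant replicate 1 or mutant replicate 4, and 7 without wild-type replicate 3 or mutant replicate 3.

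Glycolysis and hypoxia genes fell in part. Of 39 tested, 18 fell (46.2% against 8.6% of all genes) and 1 rose (2.56% against 8.21%), with a median of -0.36. Phosphofructokinase of muscle, pfkma, stood at 109, 121 and 137 CPM in wild type and at 77.6, 81.9, 75.4 and 66.9 CPM in mutants (-0.70 ± 0.10, edgeR adjusted p = 0.000126). Triose phosphate isomerase tpi1a fell by 1.67 ± 0.23 on the log2 scale, from 7.29 to 2.29 CPM. The hypoxia-induced genes egln3, a prolyl hydroxylase that marks HIF for destruction (-1.05 ± 0.19), and bnip3 of mitophagy (-1.10 ± 0.21) also fell. None of these 4 overlapped between the groups, which was favoured in advance because they were picked by p in these libraries. Without wild-type replicate 4, 8 of the list fell, and without any other library 13 to 19.

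Some pigment and lens genes and a few keratins were lower as well. Falls made up 33.3% of pigment cell genes, 29.2% of lens genes and 17.2% of epidermal genes, against 8.6% of all genes. Of 24 pigment cell genes 8 fell and none rose (median -0.23), led by oca2, a melanosome transporter (11.4, 11.6 and 11.4 CPM in wild type and 6.24, 5.53, 4.92 and 6.96 CPM in mutants, -0.96 ± 0.16), with the melanin enzymes tyrp1a (-0.73 ± 0.14), dct (-0.55 ± 0.11) and tyr (-0.42 ± 0.09). The number of pigment falls was 4 without mutant replicate 1 and 5 without wild-type replicate 3 or 4 or mutant replicate 2. Of 24 lens genes 7 fell and 1 rose (median -0.26), and leaving out any library left 6 to 9 falls. The crystallin gene cryba4 stood at 380, 380 and 384 CPM in wild type and at 117, 120, 149 and 166 CPM in mutants (-1.47 ± 0.26, edgeR adjusted p = 0.00124). The lens filament gene bfsp2 (-0.57 ± 0.08) and the crystallins crybb1l2 (-0.64 ± 0.12) and cryba1l1 (-0.52 ± 0.10) followed; crystallins can share reads. Of 29 epidermal genes 5 fell and 24 were not called (median -0.04). Largest was the fall of the keratin krt4, at 2603, 6767 and 4496 CPM in wild type and 992, 1034, 1040 and 1025 CPM in mutants (-2.18 ± 0.28, edgeR adjusted p = 6.31e-05). Wild-type pools thus spread over more than 2-fold for krt4, and mutant pools hardly at all. The other keratins were krt92 (-1.45 ± 0.32), krt94 (-0.60 ± 0.14) and krt8 (-0.54 ± 0.16), of which krt92 was not called without both wild-type replicate 4 and mutant replicate 3 (edgeR adjusted p = 0.0877), krt94 was not called without wild-type replicate 4 and krt8 not without wild-type replicate 3 or 4 or mutant replicate 1 or 3 (edgeR adjusted p = 0.0539 to 0.103). Epidermal falls numbered 8 without wild-type replicate 1, 2 without wild-type replicate 4 (median 0.10) and 3 without mutant replicate 1.

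**Figure D4:**
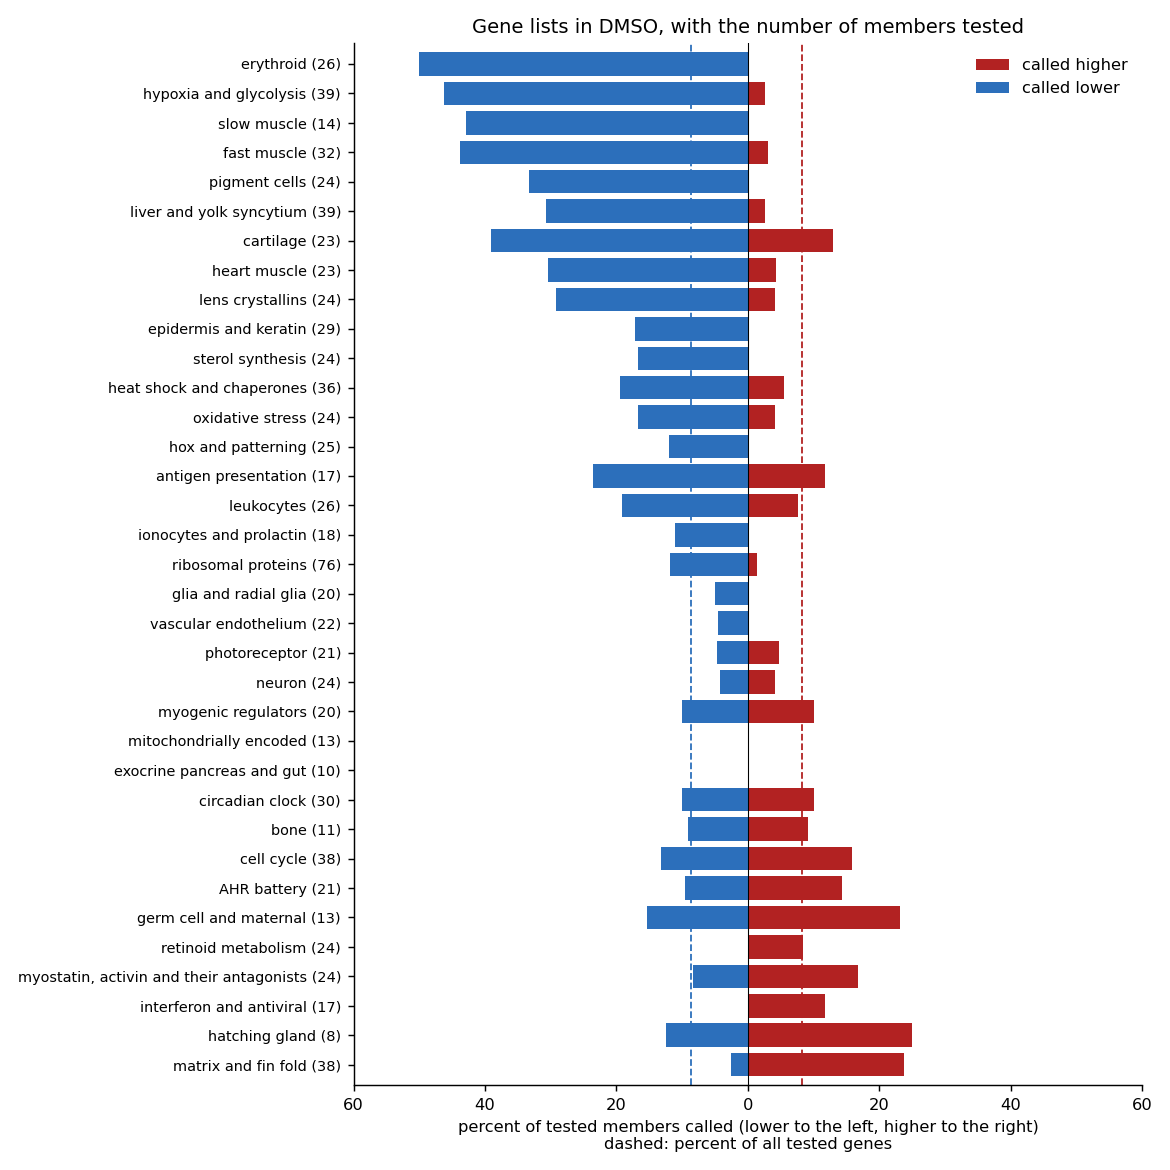
Percent of tested members of each of 35 gene lists called higher (red, right) or lower (blue, left) in mutants in DMSO, with the number tested in brackets; the dashed lines mark all tested genes, 8.21% higher and 8.6% lower. Erythroid genes have the largest share lower, and matrix and fin fold genes have the most rises by number (9 of 38, with 1 fall).

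Skeletal and matrix genes split. Of 23 cartilage genes 9 fell (39.1% against 8.6% of all genes) and 3 rose (13% against 8.21%), with a median of -0.19. Matrix proteins of cartilage fell, epyc from 540 to 396 CPM (-0.44 ± 0.07) and col9a2 from 744 to 557 CPM (-0.42 ± 0.09). The cartilage master regulator sox9a stood at 82.7, 72.2 and 69.4 CPM in wild type and at 107, 106, 105 and 98.7 CPM in mutants (0.48 ± 0.09, edgeR adjusted p = 0.00197) and rose, as did the aggrecan gene acanb (0.96 ± 0.21). Falls of the list numbered 5 without wild-type replicate 4 or mutant replicate 1, 2 or 4, and 6 without wild-type replicate 1. Of 11 bone genes, the collagen gene col1a1a rose, from 101, 98.7 and 162 CPM to 204, 208, 207 and 319 CPM (0.96 ± 0.20), and col10a1a of cartilage and bone fell (-0.46 ± 0.11). Each made up 9.09% of the bone list, near the shares of all genes.

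Matrix and fin fold genes were the list with most rises by number, 9 of 38 (23.7% against 8.21% of all genes). It had 1 fall (2.63% against 8.6%) and a median of 0.15. The actinodin gene and1, which builds the fibres of the fin fold, stood at 423, 392 and 402 CPM in wild type and at 535, 548, 523 and 511 CPM in mutants (0.38 ± 0.06), while its relative and2 stood at 305, 265 and 295 CPM against 213, 226, 208 and 225 CPM (-0.41 ± 0.07, edgeR adjusted p = 0.000902). These 2 actinodin genes moved in opposite directions, without overlap. Basement membrane collagen col4a6 (0.39 ± 0.08) and fibrillar collagen col5a3a (0.94 ± 0.20) rose. Without wild-type replicate 4 or mutant replicate 1 or 4 the list had 5 rises. With TCDD, 3 of these 38 genes were called higher and 19 lower, and for 18 the difference between the exposures was called. Over all tested genes with TCDD, 10.7% were called higher and 16.9% lower, and the difference was called for 12%.

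Of 39 liver and yolk syncytium genes 12 fell (30.8% against 8.6% of all genes) and 1 rose (2.56% against 8.21%), with a median of -0.25. The apolipoprotein genes apoa4b.1 (1098 and 623 CPM, -0.82 ± 0.16), apoa2 (1392 and 940 CPM, -0.57 ± 0.13) and apoea (-0.74 ± 0.13), which carry yolk lipid, and the protease inhibitor serpina1 (-1.09 ± 0.19) led the falls. The list's falls numbered 8 to 13 when libraries were left out in turn. Of 76 ribosomal protein genes 9 fell (11.8%, near the 8.6% of all genes) and 1 rose (1.32% against 8.21%), with a median of -0.24. Falls of this list numbered 24 without wild-type replicate 1, 2 without wild-type replicate 4, 5 without mutant replicate 1 and 4 without mutant replicate 4. Its summed level ran from 12804 to 19140 CPM in wild type and from 13484 to 13552 CPM in mutants, so that the groups overlapped. None of 13 mitochondrially encoded genes and none of 10 genes of exocrine pancreas and gut was called.

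**Figure D5:**
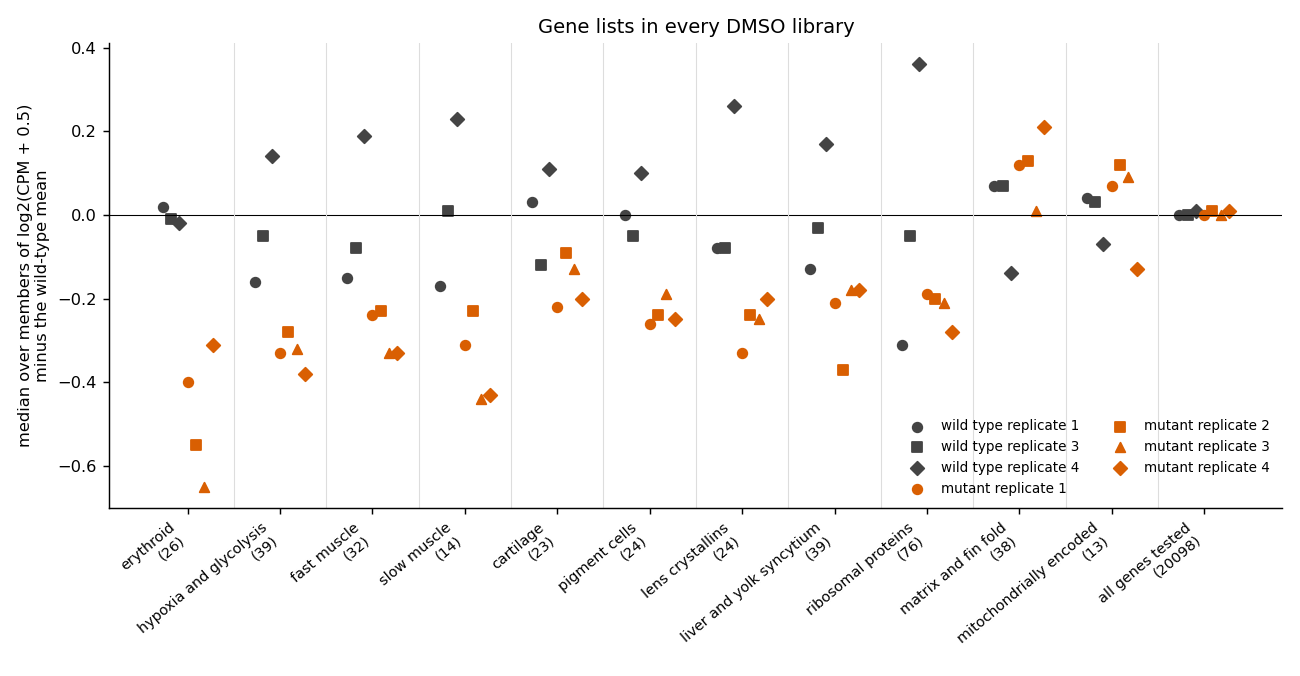
Median over the tested members of log2(CPM + 0.5) minus the mean of the wild-type libraries, for 11 gene lists and all tested genes in each vehicle library (grey wild type, orange mutant; shapes give replicates). Mutant libraries lie below all wild-type libraries for the erythroid list (-0.65 to -0.31 against -0.02 to 0.02). They also do so, by a smaller gap, for the glycolysis, fast muscle, slow muscle, pigment, lens and liver lists. The groups overlap for the cartilage, ribosomal, matrix and mitochondrial lists. Wild-type replicate 4 is the highest library for the muscle, glycolysis, lens and ribosomal lists.

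Stress and metabolic genes moved in smaller numbers. Falls made up 19.4% of heat shock genes and 16.7% each of oxidative stress and sterol synthesis genes, against 8.6% of all genes. Rises made up 5.56% of heat shock, 4.17% of oxidative stress and 8.33% of retinoid genes, against 8.21%. Of 36 heat shock and chaperone genes 7 fell and 2 rose (median -0.13): the small heat shock gene hspb9 stood at 5.99, 5.98 and 8.77 CPM in wild type and at 1.26, 2.64, 0.586 and 1.57 CPM in mutants (-2.16 ± 0.30), hsp70l fell (-2.02 ± 0.37), and the heat shock factor gene hsf1 (0.69 ± 0.10) and the disulfide isomerase pdia6 (0.45 ± 0.09) rose. Without wild-type replicate 4, 2 of the list fell; falls numbered 3, 4 and 3 without mutant replicates 2, 3 and 4. Of 24 oxidative stress genes 4 fell and 1 rose (median -0.01), the glutathione transferase gene gstm.1 among the falls (-0.96 ± 0.14), and the sensor of electrophiles keap1a as the rise (0.45 ± 0.11). Falls of this list numbered 2 without wild-type replicate 4 or mutant replicate 2. Of 24 sterol synthesis genes 4 fell and none rose (median -0.19), with the smallest p that of acat2, which joins acetyl-CoA units, at 51.6, 53.9 and 59.5 CPM in wild type and 28, 22.1, 25.7 and 34.7 CPM in mutants (-0.99 ± 0.12, edgeR adjusted p = 4.96e-05). Of 24 retinoid genes 2 rose, the retinol dehydrogenase rdh10a (1.00 ± 0.14) and the binding protein crabp2b (0.78 ± 0.15), and none fell, or 2 without wild-type replicate 3.

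Calls among genes of the aryl hydrocarbon receptor, the target of TCDD, were not scarcer in the vehicle than over all genes. Of 21 tested, 3 rose and 2 fell (median 0.09), which is 14.3% and 9.52% against 8.21% and 8.6% of all genes. The P450 gene cyp1c1 stood at 17.7, 20.1 and 19.3 CPM in wild type and at 11.3, 13.4, 12.5 and 9.68 CPM in mutants (-0.70 ± 0.12, edgeR adjusted p = 0.000949). The partner of the receptor arnt2 stood at 188, 179 and 159 CPM against 257, 233, 252 and 228 CPM (0.47 ± 0.09). The forkhead gene foxq1a (0.70 ± 0.16) and nfe2l2b (0.65 ± 0.15) rose too, nfe2l2b not without both wild-type replicate 4 and mutant replicate 3 (edgeR adjusted p = 0.0585).

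Cell cycle genes moved both ways, 6 higher (15.8%) and 5 lower (13.2%) of 38 (median 0.04), with both rrm2 IDs among them. Over all genes 8.21% rose and 8.6% fell. The proliferation marker mki67 stood at 643, 586 and 597 CPM in wild type and at 943, 827, 814 and 893 CPM in mutants (0.51 ± 0.08), and the spindle checkpoint gene bub1bb rose (0.92 ± 0.17). Rises numbered 3 without wild-type replicate 1 or mutant replicate 1 or 4, and falls 2 or 3 without wild-type replicate 3 or 4 or mutant replicate 2 or 4. Among immune genes, 5 of 26 leukocyte genes fell (19.2%) and 2 rose (7.69%), with a median of -0.21. Of these, npsn of neutrophils stood at 10.4, 14.1 and 14.9 CPM in wild type and 2.9, 4.47, 3.29 and 4.16 CPM in mutants (-1.82 ± 0.18). The receptor of granulocyte growth factor csf3r rose (1.19 ± 0.27). Of 17 antigen presentation genes 4 fell (23.5%) and 2 rose (11.8%), mhc1uba and mhc1zja (-3.78 ± 0.77) down and mhc1zka (3.47 ± 0.62) and mhc1zfa (1.97 ± 0.46) up, members of a family with close copies. Of these, mhc1zja and mhc1zka were under 1 CPM in both group means. The falls numbered 2 without wild-type replicate 3 or 4 or mutant replicate 2. The interferon-induced ifit8 stood at 0.0428, 0.0927 and 0.0445 CPM in wild type and at 1.11, 1.32, 0.992 and 1.94 CPM in mutants (4.38 ± 0.50), with wild type under the floor. In the glial list of 20 genes the only call was fabp7b, a fatty acid binding protein of radial glia, at 4.07, 7.46 and 5.66 CPM in wild type and 0.58, 0.0733, 0.0902 and 0.494 CPM in mutants (-4.23 ± 0.48, edgeR adjusted p = 1.68e-05). Neuron, photoreceptor, vascular, ionocyte, circadian, hox, hatching gland and germ cell lists had 0 to 3 members called in either direction. Falls made up 12% of hox, 11.1% of ionocyte and 10% of circadian genes, and 4.17% to 4.76% of neuron, vascular and photoreceptor genes. Rises made up 10% of circadian, 4.17% of neuron and 4.76% of photoreceptor genes, and 0% of the hox, ionocyte and vascular lists. Over all genes 8.21% rose and 8.6% fell. In the 2 shortest lists the shares were larger. Of 8 hatching gland genes 2 rose (25%) and 1 fell (12.5%). Of 13 germ cell genes 3 rose (23.1%) and 2 fell (15.4%), against 8.21% and 8.6% of all genes.

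The same contrast was available in the TCDD libraries, which share no library with the vehicle contrast but come from the same 2 lines. There 2157 genes were higher (10.7%) and 3395 lower (16.9%) in mutants. Of the 1728 genes lower in the vehicle, 783 (45.3%) were lower with TCDD too and 6 (0.347%) higher, and these 783 made up 23.1% of the genes lower with TCDD. Of the 1650 genes higher in the vehicle, 629 (38.1%) were higher with TCDD too, which is 29.2% of those, and 483 (29.3%) were lower. The difference between the exposures was itself called for 2416 genes (12%), among them 649 of the rises and 162 of the falls. It subtracts the vehicle change, so calls of it among genes called in the vehicle were favoured in advance. Large falls were shared most, with 72.8% of those of at least 2-fold called lower with TCDD, against 37.4% of rises of that size called higher. The chromosome 5 run, both rrm2 IDs and the ID of actc1a that fell kept their direction, at -5.78 for actc1a and at -5.63 and 2.66 for rrm2 with TCDD.

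Rises that turned into falls with TCDD lay at the low end of the axis weights. Most of their calls in the vehicle ended without wild-type replicate 4 alone, but most stayed without both it and mutant replicate 3. The 483 such genes had a median change of 0.95 in the vehicle and -1.29 with TCDD, and lay at a median percentile of 3.63 of the axis weights, against 46.7 for the 629 rises that were shared. In the vehicle, 120 of the 483 (24.8%) stayed called higher without wild-type replicate 4, 379 (78.5%) without both it and mutant replicate 3, and 63 (13%) with the axis score as a term. For the shared rises these counts were 469 (74.6%), 447 (71.1%) and 450 (71.5%), and for the shared falls 642 (82%), 617 (78.8%) and 592 (75.6%). Over all tested genes, 6.14% were called higher and 5.28% lower without these 2 libraries, and 3.95% and 4.99% with the term. An example is tbc1d9, at 4.67, 6.72 and 2.05 CPM in wild type and 21.6, 14.2, 7.44 and 29.5 CPM in mutants in the vehicle (2.02 ± 0.40), and at -2.67 with TCDD (edgeR adjusted p = 0.000101). In it wild-type replicate 4 was the lowest of its group and mutant replicate 3 the lowest of its own. The TCDD libraries scored -28.08, -14.81 and -19.18 on the axis in wild type and 26.88, 28.92, 11.06 and 25.5 in mutants. With TCDD all mutant libraries thus lay above all wild-type libraries on it, which was not so in the vehicle. The score keeps differences between groups, so a fit with it also removes part of any group difference along the axis, and the part of the axis in these calls was not tested.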

How the data were processed

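RNA of pooled whole embryos was sequenced as stranded, poly(A)-selected, single-end libraries, per the labels' protocols. The authors deposited raw counts per gene; the submitters' processing notes list assembly GRCz11, edgeR, HTSeq 0.12.4, HISAT2 2.2.0, SAMtools 1.10 and cutadapt 1.8.1. The strand setting and annotation release were not given in the sources used here, so overlapping and antisense genes cannot be told apart. The authors' deposited table of the comparison holds log2 ratios, log2 mean CPM, p-values and an F score, which were used for names and for a comparison of calls.

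The tests used edgeR 4.0.16 in R 4.3.3 on the counts (filterByExpr, TMM, quasi-likelihood F test, 1 mean per group over all 14 libraries), which kept 20098 of 32520 genes with 99.9% of counts; p was adjusted by Benjamini and Hochberg. Each SE was obtained by dividing the log2 change by the root of its F value. Intervals were not used; 3 counts per library served as the floor, covering counting error only. For the shared axis, group means were subtracted from log2 CPM (made with a prior count of 2) and the leading singular vector was taken; libraries were scored by projecting them without that subtraction. The authors' tables named 10902 IDs, 18822 were named from a list of gene names, 2796 IDs had no name, and 20565 were placed by symbol on GRCz12tu. The fit was tested on simulated data. Alternatives used limma 3.58.1 and DESeq2 1.42.0.

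Named were wfikkn1, the 15 largest rises and falls among called genes with a mean of at least 1 log2 CPM, no overlap and a gene name, up to 4 called members of each of 36 lists, called genes within 25 tested genes of wfikkn1, and genes on in 1 line only. Members and lists were chosen with earlier results of these data known. Members of runs and some others were named after their values were seen. Each pool had its own dish, per the labels; p-values measure spread between pools of these 2 lines. A few named genes and 1 list are left out of the text and plots.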

Additional observations from a re-analysis of the deposited data

Results flagged for a closer look

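Mutant vehicle libraries that stood apart from the other 3 in a single named gene numbered 12 over 173 named genes. Chance alone flags about 1 group in 20, so this number is near the chance share and is not read as an excess. Mutant replicate 4 was the lowest for rbfox1l (1.07 CPM) and the highest for col1a1a (319 CPM), tyrp1a (74.6 CPM), gpr108 (64.1 CPM) and acot9.2 (0.577 CPM). Mutant replicate 3 was the lowest for smyhc1 (16 CPM), mef2ca (225 CPM) and slc17a6a, a glutamate transporter gene (17.3 CPM), and the only one with a read of mhc1uba (0.0451 CPM). Mutant replicate 2 was the highest for cryba1l1 (76.5 CPM) and tia1l (17.6 CPM) and the lowest for foxq1a (4.21 CPM).

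All named genes were called in DMSO, and the difference given here subtracts that DMSO change. A difference of opposite sign to the DMSO change was thus favoured in advance. For 28 named genes the mutant effect with TCDD minus that in DMSO was called by edgeR's test of the difference. It was below 0 for CEP170B (1 of many) (-3.37), tbc1d9 (-4.70), tgfb2 (-0.87), pax3a (-0.70), pax3b (-2.04), sox9a (-0.44), acanb (-2.43), col4a6 (-0.47), col5a3a (-1.29), slc17a6a (-1.95), csf3r (-2.16), mki67 (-0.36), hsf1 (-0.77), rorcb (-1.23) and arnt2 (-0.47). Each of these 15 rose in DMSO. It was above 0 for epyc (0.33), col9a2 (0.43), bfsp2 (0.37), crybb1l2 (0.60), nefmb (0.56), mmp13a (1.15), apoeb (0.49), apoea (0.92), pfkma (0.44), tpi1a (1.10), cyp1c1 (0.54) and gpr108 (0.42), which fell in DMSO, and for pdia6 (0.48), which rose in both exposures. Besides tgfb2, marked above, slc17a6a, rorcb and nefmb lost their DMSO calls without wild-type replicate 4 (edgeR adjusted p = 0.161, 0.0649 and 0.105). The DMSO call of slc17a6a also ended without mutant replicate 1, 2 or 4. That of apoeb ended without both wild-type replicate 4 and mutant replicate 3 (edgeR adjusted p = 0.0655).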

How the results depend on the processing

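Main counts were 1650 rises and 1728 falls. Rises and falls numbered 1613 and 1734 with RLE scaling, 1882 and 1922 with DESeq2, and 1584 and 1663 with limma-voom. They numbered 1581 and 1810 without a filter, and 1505 and 1753 with a CPM filter. With a title number term, which set sample title numbers above 8 apart from the others, they numbered 1475 and 1586. With only the DMSO libraries they were 1003 and 1169, with 404 rises of at least 2-fold. With the axis score as a term they were 793 and 1003, with 308 such rises, and without wild-type replicate 4 and mutant replicate 3 there were 1076 falls. Leaving out each library in turn gave 928 to 1877 rises, 1136 to 1595 falls, 372 to 815 rises and 494 to 592 falls of at least 2-fold, and -3.71 to -2.49 for wfikkn1. For wfikkn1, limma-voom gave -3.36 and the axis term -2.43, both not called, and the fit of the DMSO libraries alone did not hold the gene. Other cut-offs gave 7 or 0 genes on in mutants only, 25 or 2 in wild type only, and 16.7% called within 10 genes of wfikkn1; the cause was not tested. The DMSO libraries alone, single left-out libraries and the axis term leave fewer degrees of freedom.

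Same-numbered libraries did not deviate together (correlations 0.0872, -0.357 and -0.262). With the replicate block over all libraries 1324 rises and 1427 falls were called, and with the replicate block in the DMSO libraries alone 259 and 354, of which 156 and 257 were at least 2-fold. None of the 173 named genes reversed under 15 settings, and 119 kept their call under all of these. The 15 leave out the replicate block in the DMSO libraries alone and the other filters. With that block the calls of many named genes ended, including many that kept them under all 15 settings. Among them were rbfox1l (edgeR adjusted p = 0.0793), smyhc1 (edgeR adjusted p = 0.132) and hsp70l (edgeR adjusted p = 0.0567). The calls of sox9a, cyp1c1, and1, and2, pax3b, six1b and epyc ended too (edgeR adjusted p = 0.0547 to 0.0839). Calls ended for 41 with the axis term, 31 without wild-type replicate 4 and mutant replicate 3, 27 without wild-type replicate 4, 14 with only the DMSO libraries, 9 with the replicate block over all libraries, 2 with limma-voom and 0 with RLE scaling, DESeq2 or the title number term. At these depths, genes at a few counts, wfikkn1 among them, gave wide errors.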
